A study of Homo sapiens with 6 samples.

Results

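The NRF2 response and glutathione metabolism were followed through 45 genes, picked by name, of the 21631 gene symbols counted by RNA-seq in A-375, a cell line derived from a human melanoma. The first group was 3 libraries titled with a guide against SEPHS2, the enzyme that makes the selenophosphate used to build selenocysteine, and the second was 3 libraries titled with a control guide. The series presents these as SEPHS2 knockout and control cells. The labels give no guide sequence, time, treatment or number of clones. Nothing in them tells whether replicates came from different cultures, and the p-values therefore cover just the spread among these libraries, which may be technical. Any difference between the founding cells and any effect of the guide cannot be told apart.

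NRF2, encoded by NFE2L2, is a transcription factor that KEAP1 holds in the cytoplasm and presents for degradation. When reactive compounds modify KEAP1, NRF2 collects in the nucleus, pairs with a small MAF protein and binds antioxidant response elements, DNA sites at which BACH1 acts as a repressor. Its targets make glutathione, join it to electrophiles and reduce quinones and carbonyls, and several selenoproteins work beside them in removing peroxides.

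The libraries held 34606145 to 43405579 counted reads in the sgSEPHS2 group and 39796984 to 41757643 in the sgCTRL group. SEPHS2 mRNA itself was not lower where the guide targets it. It had 170, 177 and 172 CPM (reads of a gene scaled to library size, here with TMM factors, in the usual CPM unit) in the libraries labelled sgSEPHS2, against 158, 152 and 157 CPM in the sgCTRL libraries, a log2 fold change of 0.15 (edgeR adjusted p = 0.00401). A gene count does not show whether the reading frame was changed, so every direction below rests on the labels. The labelled cell type was checked on markers. SOX10 averaged 569 ± 12.98 CPM in sgSEPHS2-labelled and 619 ± 15.6 CPM in sgCTRL libraries (SD, n = 3 each), and MITF 18.5 ± 0.668 and 23.5 ± 1.3 CPM, while the pigment genes PMEL, MLANA, TYR, TYRP1 and DCT averaged 1.30 CPM or less in both groups. In this melanocyte and melanoma list, MITF, SOX10 and PRAME were lower in sgSEPHS2-labelled libraries (log2 fold changes -0.35, -0.12 and -0.12). S100B, S100A1, PMEL and MLANA did not pass, and TYR, TYRP1 and DCT were not tested. Of 6 fibroblast markers 4 reached a mean of 1 CPM, and their sum was 48.3 to 54.6 CPM in sgSEPHS2-labelled and 73.2 to 74.9 CPM in sgCTRL libraries, mostly PDGFRB. The list went both ways, with PDGFRB, COL1A1 and COL1A2 lower (log2 fold changes -0.86, -0.61 and -2.23), LUM higher (0.76), and DCN (0.85) and PDGFRA (-0.08) not passing. Of the 4 leukocyte markers measured, LYZ alone reached a mean of 1 CPM, and the sum was 6.52 to 7.20 CPM in sgSEPHS2-labelled and 3.42 to 4.38 CPM in sgCTRL libraries, with PTPRC near 0. The 4 keratinocyte markers measured summed to 43.1 to 46.2 CPM in sgSEPHS2-labelled and 35.7 to 36 CPM in sgCTRL libraries, mostly KRT10. KRT10 and KRT14 were higher (log2 fold changes 0.29 and 2.14), EPCAM did not pass (-0.19) and CDH1 was not tested. The 5 endothelial markers summed to 8.08 to 9.15 CPM in sgSEPHS2-labelled and 9.69 to 10.2 CPM in sgCTRL libraries. Among them TEK alone passed, as lower (-1.04). The sum of 7 markers of dedifferentiated melanoma was 2440 to 2544 CPM in sgSEPHS2-labelled and 2167 to 2245 CPM in sgCTRL libraries. Most of that sum was VIM and CD44. VIM, AXL, WNT5A and NGFR were higher (log2 fold changes 0.23, 0.42, 0.17 and 1.97), EGFR and SOX9 lower (-0.93 and -0.74), and CD44 did not pass (0.02). The part of these shifts in the results was not tested.

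Many detoxifying and glutathione genes were higher in the sgSEPHS2-labelled libraries, and most regulators that passed the test were lower. Of the 45 genes, 42 had enough reads to be tested with edgeR, and 23 of these were higher, 7 lower and 12 did not pass at an adjusted p under 0.05. The background is large: of all 16910 genes tested, 45.4% passed, 22.0% higher and 23.4% lower. Among the 42 the shares were 54.8% higher and 16.7% lower. Their median log2 fold change was 0.15, against 0.01 over all genes tested. The 45 genes were chosen with earlier results of these data known, so these shares are not an independent test of the pathway. The groups did not overlap for 32 of the 42, where 52.1% of all tested genes had no overlap. Most changes were under 1.5-fold, and the range of log2 fold changes ran from -0.72 for BACH1 to 0.91 for GCLM. In bulk RNA, fewer cells expressing a gene and less RNA per cell cannot be told apart.

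**Figure D1:**
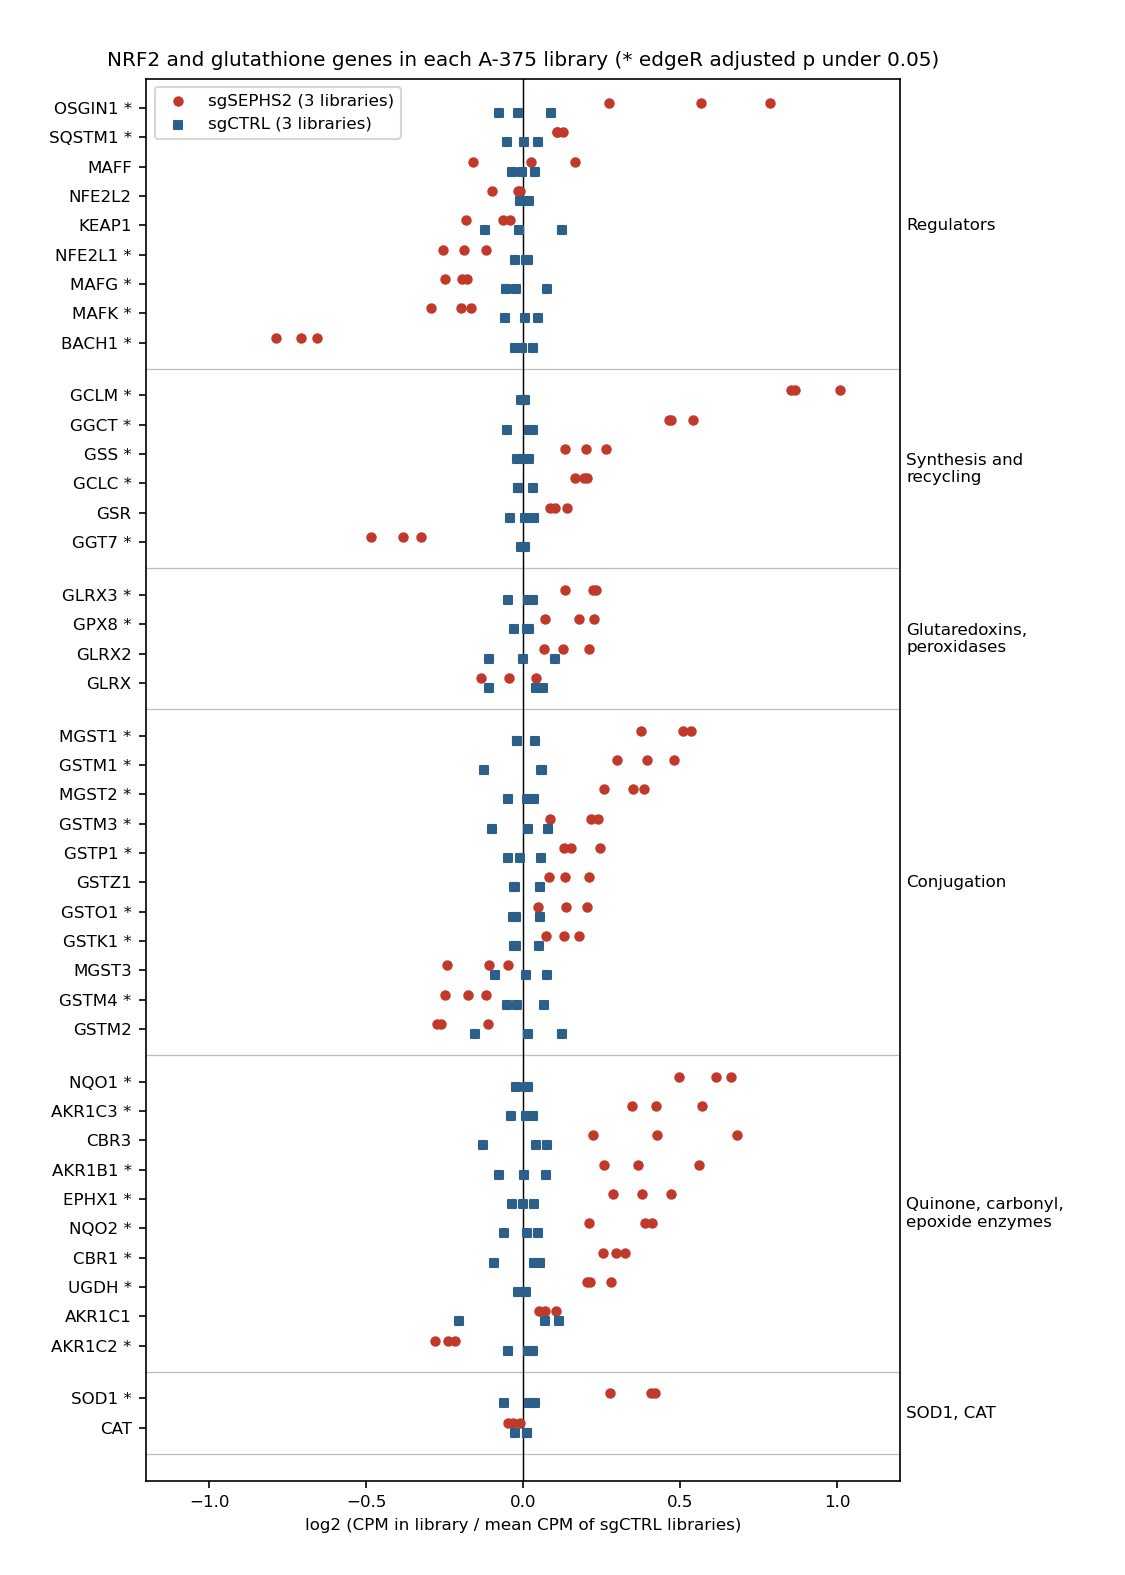
Level of each tested gene in each library, as log2 of its CPM over the mean CPM of the sgCTRL libraries (x axis), with genes in rows by role; red circles are the 3 sgSEPHS2-labelled libraries, blue squares the 3 sgCTRL libraries, and a star marks an adjusted p under 0.05. GCLM lies furthest to the right and BACH1 furthest to the left, each with no overlap between groups.

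**Figure D2:**
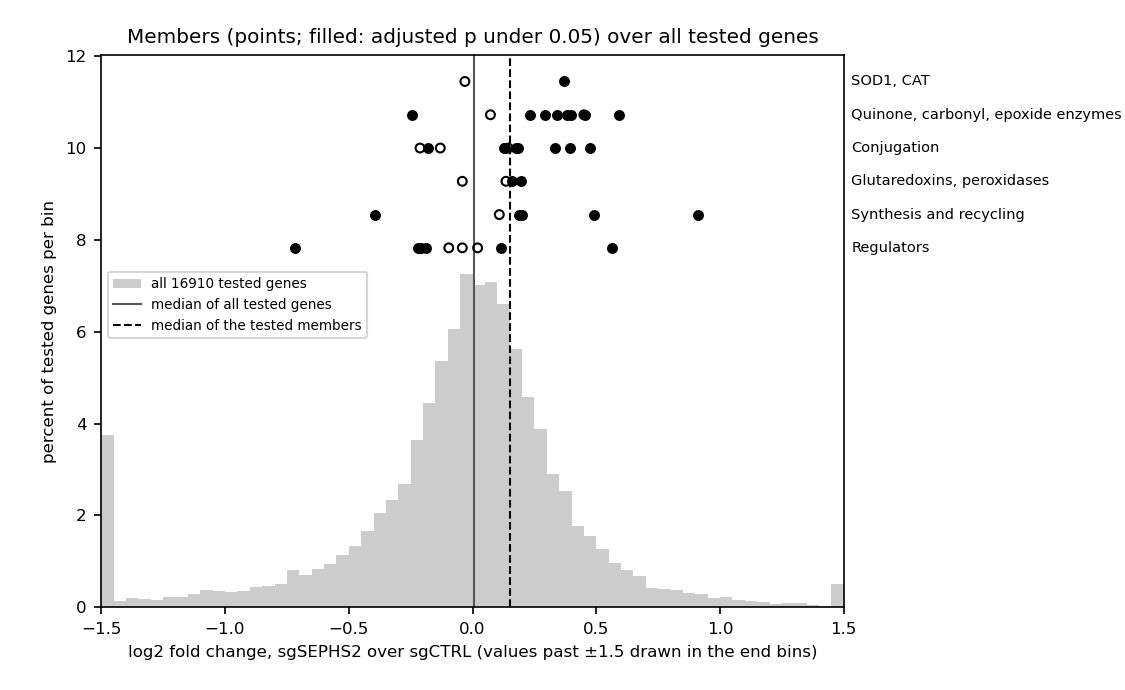
Log2 fold change, sgSEPHS2 over sgCTRL (x axis), of the tested members as points in rows by role, filled where they passed, above the distribution over all 16910 tested genes in grey (y axis, percent of genes per bin). The median of the members (dashed, 0.15) lies to the right of that of all genes (solid, 0.01).

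Promoter letters are shown first for members whose windows hold the core of an antioxidant response element, written TGACNNNGC and searched on both strands. RefSeq windows on GRCh38.p14, from 250 bases before to 50 bases after a start, were at hand for 36 of the 45 genes, and 10 of these (27.8%) held a match, against 16.1% of 27305 genes with windows. The 10 were GCLM, GSTM1, EPHX1, GSTO1, GSTP1, MGST1, CBR1, KEAP1, MAFF and GGT1. Of 18 higher members with a window, 7 held a match, as did none of 6 lower members and 2 of 10 that did not pass. These counts are small and were not set against all higher or lower genes, so a link between motif and direction was not tested. In MGST1 the match lay after the start. The following 30-base stretches read along the gene's strand, with the match in capitals. GCLM and KEAP1 are chosen because they hold the same core letters and had different results, GSTP1 because it is the most abundant transferase, and EPHX1 and CBR1 because they were clearly higher.
GCLM: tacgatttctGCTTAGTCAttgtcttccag
KEAP1: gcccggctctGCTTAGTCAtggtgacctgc
GSTP1: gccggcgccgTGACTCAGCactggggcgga
EPHX1: tgagattggcTGACTTGGCaggactgtgca
CBR1: tgcgggttctGCAAAGTCAggctagctggc
These lie at chr1:93909445-93909474 (minus strand) for GCLM, chr19:10502783-10502812 (minus strand) for KEAP1, chr11:67583736-67583765 for GSTP1, chr1:225825266-225825295 for EPHX1 and chr21:36069855-36069884 for CBR1, the last 3 on the plus strand. The KEAP1 and EPHX1 stretches belong to one of several annotated starts. A match describes the letters only, and NRF2 binding was not measured.

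The mRNAs of NRF2 and its direct inhibitor did not pass the test. NFE2L2 (chromosome 2, 177230303 to 177264727, GRCh38.p14) had 114, 120 and 121 CPM in sgSEPHS2-labelled libraries and 124, 121 and 121 CPM in sgCTRL libraries. These ranges overlapped, and the log2 fold change was -0.04 with an SE of 0.04 (edgeR adjusted p = 0.462). Of its exonic bases 20.9% also lie in exons of other genes. KEAP1, the adaptor that sends NRF2 to degradation, had 65.4, 64.4 and 59.5 CPM in sgSEPHS2-labelled libraries and 66.8, 73.5 and 61.9 CPM in sgCTRL libraries. Its groups overlapped (log2 fold change -0.10, SE 0.06, edgeR adjusted p = 0.184), but it passed as lower without sgCTRL replicate 3 (-0.16, adjusted p = 0.036).

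BACH1 (chromosome 21, 29298922 to 29361894), the repressor at the same DNA sites, fell furthest of the 42. It had 63.7, 60.2 and 65.9 CPM in the sgSEPHS2-labelled libraries, against 106, 102 and 104 CPM in the sgCTRL libraries. Each sgSEPHS2-labelled value lay well below each sgCTRL value, and the log2 fold change was -0.72 with an SE of 0.05 (edgeR adjusted p = 4.93e-11). The symbol GRIK1-AS2 carries the same 6 counts in the table, so the gene behind these reads is uncertain. Reads of BACH1 per read of NFE2L2, a ratio not corrected for length, were 0.56, 0.5 and 0.545 in sgSEPHS2-labelled and 0.86, 0.842 and 0.857 in sgCTRL libraries. In an exact two-sided permutation test this ratio had p = 0.1, the smallest that 3 against 3 libraries allow.

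The small MAF proteins, partners of both NRF2 and BACH1, were lower or did not pass. MAFG had 53.6, 53 and 51 CPM in sgSEPHS2-labelled and 63.8, 58.3 and 59.6 CPM in sgCTRL libraries, with no overlap (log2 fold change -0.21, SE 0.05, edgeR adjusted p = 0.00158). MAFK had a log2 fold change of -0.22 (adjusted p = 0.0159), a call lost without sgSEPHS2 replicate 3, sgCTRL replicate 1 or sgCTRL replicate 2 (adjusted p = 0.0503 to 0.0728) and once a trend in exon length and GC content was removed (-0.09, adjusted p = 0.281). MAFF averaged 17 ± 1.9 CPM in sgSEPHS2-labelled and 16.8 ± 0.416 CPM in sgCTRL libraries (log2 fold change 0.02, edgeR adjusted p = 0.853).

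NFE2L1, a relative of NRF2 known for control of proteasome genes, had 207, 198 and 189 CPM in sgSEPHS2-labelled and 227, 228 and 221 CPM in sgCTRL libraries. The groups were apart (log2 fold change -0.19, SE 0.04, edgeR adjusted p = 0.00109). The difference was smaller with the length and GC trend removed (-0.12, adjusted p = 0.0102). The regulators that rose were OSGIN1 and SQSTM1. OSGIN1, an oxidative stress-induced growth inhibitor, had 2.78, 3.97 and 3.4 CPM in sgSEPHS2-labelled and 2.44, 2.28 and 2.18 CPM in sgCTRL libraries (log2 fold change 0.56, SE 0.16, edgeR adjusted p = 0.00755). Its sgSEPHS2-labelled values spread more widely than its sgCTRL values, and without sgSEPHS2 replicate 2 the call was lost (0.43, adjusted p = 0.0584). SQSTM1, the autophagy receptor p62 that can sequester KEAP1, had a log2 fold change of 0.11 (edgeR adjusted p = 0.0265). That call was lost without sgSEPHS2 replicate 2, sgCTRL replicate 1 or sgCTRL replicate 3 (adjusted p = 0.0657 to 0.17), whereas the fold change was 0.25 with the length and GC trend removed (adjusted p = 7.80e-06).

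**Figure D3:**
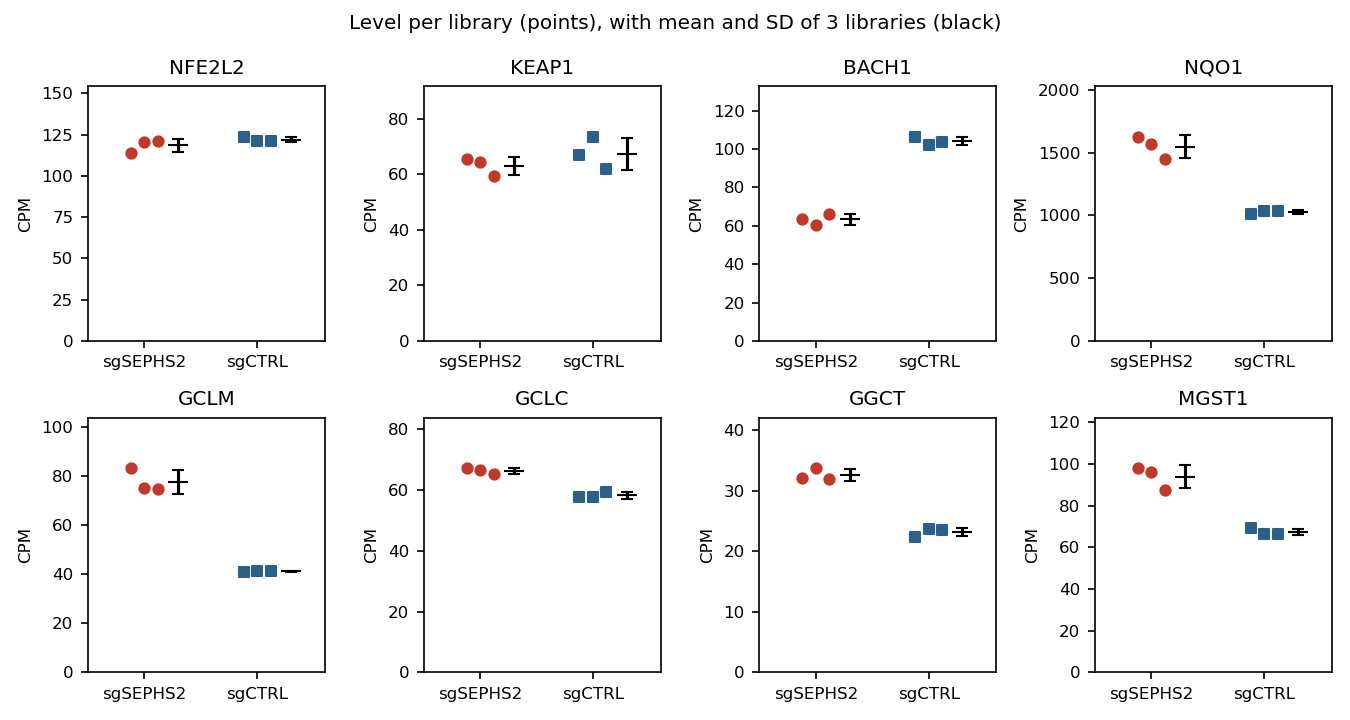
CPM of 8 genes in each library (y axis from 0), sgSEPHS2-labelled libraries in red and sgCTRL libraries in blue, with the mean and SD of 3 libraries in black. NFE2L2 and KEAP1 overlap between groups, BACH1 is lower, and NQO1, GCLM, GCLC, GGCT and MGST1 are higher in the sgSEPHS2-labelled libraries.

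Glutathione synthesis genes rose, unevenly. GCLM (chromosome 1, 93885199 to 93909430), the modifier subunit of glutamate-cysteine ligase, which carries out the rate-limiting step, had 83, 75.2 and 74.5 CPM in sgSEPHS2-labelled libraries, against 41, 41.5 and 41.3 CPM in sgCTRL libraries. The sgCTRL values were almost the same and all sgSEPHS2-labelled values were far above them, a 1.88-fold difference (log2 fold change 0.91, SE 0.05, edgeR adjusted p = 4.86e-12). GCLC (chromosome 6, 53497341 to 53545101), the catalytic subunit, had 67.2, 66.7 and 65.3 CPM in sgSEPHS2-labelled and 57.7, 57.7 and 59.5 CPM in sgCTRL libraries. The groups did not overlap, but the difference was only 1.14-fold (log2 fold change 0.19, SE 0.04, edgeR adjusted p = 0.00168). Reads of GCLM per read of GCLC were 1.17 ± 0.0592 in sgSEPHS2-labelled and 0.708 ± 0.0133 in sgCTRL libraries (SD, n = 3 each; exact two-sided permutation p = 0.1, the smallest possible here). On the scale of RPKM, which divides CPM by exon length in kilobases, GCLM averaged 14.3 and GCLC 7.68 in sgSEPHS2-labelled libraries, and GCLM averaged 7.61 and GCLC 6.74 in sgCTRL libraries. On this scale, levels of the subunits were close in sgCTRL libraries and further apart in the others. The lengths count every annotated exon of a gene, so this comparison between genes depends on them.

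GSS, which adds glycine to complete glutathione, had 151, 158 and 144 CPM in sgSEPHS2-labelled and 130, 133 and 131 CPM in sgCTRL libraries (log2 fold change 0.20, SE 0.04, edgeR adjusted p = 6.68e-04). GSR, the reductase that regenerates glutathione from its disulfide, had 54, 52.6 and 51.9 CPM in sgSEPHS2-labelled and 49.2, 47.6 and 50.2 CPM in sgCTRL libraries. The GSR groups did not overlap, yet the test was not passed (log2 fold change 0.11, SE 0.05, edgeR adjusted p = 0.0691). Enzymes that break glutathione down or recycle its parts went both ways. GGCT, gamma-glutamylcyclotransferase, had 32.1, 33.7 and 31.9 CPM in sgSEPHS2-labelled and 22.4, 23.7 and 23.4 CPM in sgCTRL libraries (log2 fold change 0.49, SE 0.06, edgeR adjusted p = 3.11e-07). Among its exonic bases 27.6% lie in an exon of another gene. GGT7, a gamma-glutamyltransferase relative, had 53.8, 60 and 57.7 CPM in sgSEPHS2-labelled and 75.3, 75.5 and 74.8 CPM in sgCTRL libraries. It was the 1 gene of this role to fall (log2 fold change -0.39, SE 0.05, edgeR adjusted p = 7.50e-07). GGT1, the classical cell-surface enzyme, had 4, 5 and 1 reads in sgSEPHS2-labelled and 4, 7 and 2 reads in sgCTRL libraries and was not tested.

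The glutaredoxins and the peroxidase GPX8 had log2 fold changes from -0.04 to 0.20. Their median of 0.15 was close to that of the glutathione transferases (0.14). Of 4 tested, 2 rose and none fell. That is 50% passing, against 45.4% of all genes tested. GLRX3, a cytosolic glutaredoxin that handles iron-sulfur clusters, had 139, 138 and 130 CPM in sgSEPHS2-labelled and 115, 121 and 120 CPM in sgCTRL libraries (log2 fold change 0.20, SE 0.04, edgeR adjusted p = 8.57e-04). GPX8, a peroxidase of the endoplasmic reticulum that contains cysteine in place of selenocysteine, had 77.3, 71.7 and 79.8 CPM in sgSEPHS2-labelled and 69.1, 66.9 and 68.9 CPM in sgCTRL libraries (log2 fold change 0.16, SE 0.05, edgeR adjusted p = 0.00954). The GPX8 call was lost without sgSEPHS2 replicate 3 (0.12, adjusted p = 0.0583) and with the length and GC trend removed (0.07, adjusted p = 0.22). Cytosolic GLRX and mitochondrial GLRX2 did not pass (-0.04 with edgeR adjusted p = 0.622 for GLRX, 0.14 with 0.0715 for GLRX2), although GLRX2 did without sgSEPHS2 replicate 3 (adjusted p = 0.0449) or sgCTRL replicate 3 (adjusted p = 0.0263). GPX7, the paralog of GPX8, had 2 reads over the sgSEPHS2-labelled group and 6 over the sgCTRL group.

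Glutathione transferases, which join glutathione to electrophiles, rose in 7 of 11 cases and fell in 1. These shares, 63.6% higher and 9.09% lower, compare with 22.0% and 23.4% of all genes tested. GSTP1, the pi-class enzyme, had 255, 275 and 259 CPM in sgSEPHS2-labelled and 225, 242 and 231 CPM in sgCTRL libraries (log2 fold change 0.18, SE 0.04, edgeR adjusted p = 0.00214). Per exon length GSTP1 made up 53.3 ± 0.553% of the summed RPKM of the 11 genes in sgSEPHS2-labelled and 53 ± 0.385% in sgCTRL libraries, and GSTO1, the omega-class enzyme, 24.5 ± 0.703% and 25.1 ± 0.194% (SD, n = 3 each). MGST1, a microsomal enzyme, took 4.89 ± 0.277% in sgSEPHS2-labelled and 3.96 ± 0.194% in sgCTRL libraries on the same scale. The same members led the family in both groups. MGST1 had 97.9, 96.1 and 87.5 CPM in sgSEPHS2-labelled libraries, against 69.3, 66.6 and 66.6 CPM in sgCTRL libraries, a clear separation (log2 fold change 0.47, SE 0.05, edgeR adjusted p = 6.30e-08). Its relative MGST2 had 18.9, 20.6 and 20.1 CPM in sgSEPHS2-labelled and 15.9, 16.2 and 15.3 CPM in sgCTRL libraries (log2 fold change 0.33, SE 0.07, edgeR adjusted p = 2.68e-04). MGST3 did not pass (-0.13, adjusted p = 0.0871), but was lower where at least 1 CPM was required in 3 libraries, just under the threshold, and without sgSEPHS2 replicate 2 or sgCTRL replicate 3 (adjusted p = 0.0463 and 0.0377).

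The mu-class genes lie together on chromosome 1 and did not move as a block. GSTM1 had 12.2, 13 and 11.4 CPM in sgSEPHS2-labelled and 8.54, 9.71 and 9.69 CPM in sgCTRL libraries (log2 fold change 0.39, SE 0.09, edgeR adjusted p = 9.99e-04). GSTM3 also passed as higher (0.18, adjusted p = 0.0264) and GSTM4 as lower (-0.18, adjusted p = 0.0169), while GSTM2 did not pass (-0.21, adjusted p = 0.102). The GSTM3 call was lost with DESeq2 (adjusted p = 0.0807) and without any 1 of 4 libraries, sgSEPHS2 replicates 2 and 3 and sgCTRL replicates 1 and 3 (adjusted p = 0.0559 to 0.157). GSTM4 lost its call without sgSEPHS2 replicate 1 or sgCTRL replicate 2 (adjusted p = 0.0619 and 0.0933) and with the length and GC trend removed (adjusted p = 0.0932). These genes are close in sequence, and 38.3% of the exonic bases of GSTM1 lie in exons of other genes, so reads could have been split between them. GSTO1 and GSTK1, the mitochondrial and peroxisomal kappa-class enzyme, each had a log2 fold change of 0.13 (edgeR adjusted p = 0.0269 and 0.0267). GSTO1 lost its call without sgSEPHS2 replicate 2, sgCTRL replicate 1 or sgCTRL replicate 3 (adjusted p = 0.0985 to 0.147) and with the trend removed (0.02, adjusted p = 0.71). GSTK1 lost its call with DESeq2, where the adjusted p was at the threshold, and without sgSEPHS2 replicate 2 or 3 or sgCTRL replicate 1 or 2 (adjusted p = 0.0581 to 0.108). GSTZ1, which acts in tyrosine breakdown, did not pass (0.14, adjusted p = 0.107) but did with the trend removed (0.27, adjusted p = 0.00354).

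Enzymes that reduce quinones and carbonyls or open epoxides rose in 7 of 10 tested cases. Shares were 70% higher and 10% lower, against 22.0% and 23.4% of all genes tested. NQO1 (chromosome 16, 69709401 to 69726560), a quinone reductase and a standard readout of NRF2 activity, had 1625.3, 1572 and 1449 CPM in sgSEPHS2-labelled libraries, against 1010.1, 1032 and 1037 CPM in sgCTRL libraries. The lowest sgSEPHS2-labelled value was far above the highest sgCTRL value, a 1.51-fold difference (log2 fold change 0.59, SE 0.04, edgeR adjusted p = 5.93e-10). Per exon length it was the most abundant of the 42, ranking 38 of 16065 genes in sgSEPHS2-labelled and 55 of 16065 in sgCTRL libraries. Its window, from 250 bases before to 50 bases after a start, held no match to the motif above. Bases further out were not searched. Of the exonic bases of NQO1, 17.7% overlap a gene on the other strand. The paralog NQO2 was higher as well (log2 fold change 0.34, SE 0.07, edgeR adjusted p = 2.05e-04).

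Aldo-keto reductases differed from one another. AKR1B1, aldose reductase, had 359, 314 and 292 CPM in sgSEPHS2-labelled and 244, 256 and 231 CPM in sgCTRL libraries (log2 fold change 0.40, SE 0.06, edgeR adjusted p = 8.90e-06), with 7 named pseudogenes that could take or give reads. AKR1C3, a ketosteroid and prostaglandin reductase, had 33, 38.5 and 34.8 CPM in sgSEPHS2-labelled and 25.2, 26.5 and 26.1 CPM in sgCTRL libraries (log2 fold change 0.45, SE 0.06, edgeR adjusted p = 2.94e-06). AKR1C2, its neighbour, went the other way, with 16.2, 16.9 and 16.7 CPM in sgSEPHS2-labelled and 19, 19.9 and 20.1 CPM in sgCTRL libraries (log2 fold change -0.24, SE 0.06, edgeR adjusted p = 0.00346). AKR1C1, nearly identical to AKR1C2 in sequence, had a log2 fold change of 0.07 (edgeR adjusted p = 0.686). Reads could have been split between AKR1C1 and AKR1C2, so both results are uncertain. AKR1B10, a retinal reductase often raised when NRF2 is active, had 7, 15 and 4 reads in sgSEPHS2-labelled libraries and 0 reads in each sgCTRL library. Set against a floor of 3 reads over the sgCTRL group, it was 9.08-fold higher. That figure takes the 26 reads of the sgSEPHS2-labelled group as exact. The exact 95% interval of the ratio, from reads pooled over each group, starts at 6.87-fold. That interval covers counting error but not the spread among libraries. AKR1B10 had too few reads for the main test, and without the filter on low counts edgeR gave adjusted p = 0.00158.

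EPHX1, microsomal epoxide hydrolase, had 43.3, 46.2 and 40.6 CPM in sgSEPHS2-labelled and 34.1, 33.3 and 32.5 CPM in sgCTRL libraries (log2 fold change 0.38, SE 0.06, edgeR adjusted p = 8.69e-06). CBR1, a carbonyl reductase, rose by a log2 fold change of 0.29 (edgeR adjusted p = 1.51e-04). Its neighbour and paralog CBR3 had 2.58, 2.16 and 1.88 CPM in sgSEPHS2-labelled and 1.47, 1.7 and 1.65 CPM in sgCTRL libraries and did not pass (0.45, edgeR adjusted p = 0.0597), except without sgSEPHS2 replicate 3 (adjusted p = 0.0394). UGDH, which makes the glucuronate donor for conjugation, rose by 0.23 (edgeR adjusted p = 5.21e-04), and by 0.15 with the length and GC trend removed (adjusted p = 0.0123).

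The enzymes that clear superoxide and hydrogen peroxide without selenium gave different results. SOD1, the copper-zinc superoxide dismutase, had 170, 168 and 154 CPM in sgSEPHS2-labelled and 122, 130 and 129 CPM in sgCTRL libraries (log2 fold change 0.37, SE 0.05, edgeR adjusted p = 1.20e-06). CAT, the peroxisomal catalase, had 123, 127 and 125 CPM in sgSEPHS2-labelled and 125, 129 and 129 CPM in sgCTRL libraries. The CAT groups overlapped, and the difference was -0.03 on the log2 scale with an SE of 0.04 (edgeR adjusted p = 0.577).

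**Figure D4:**
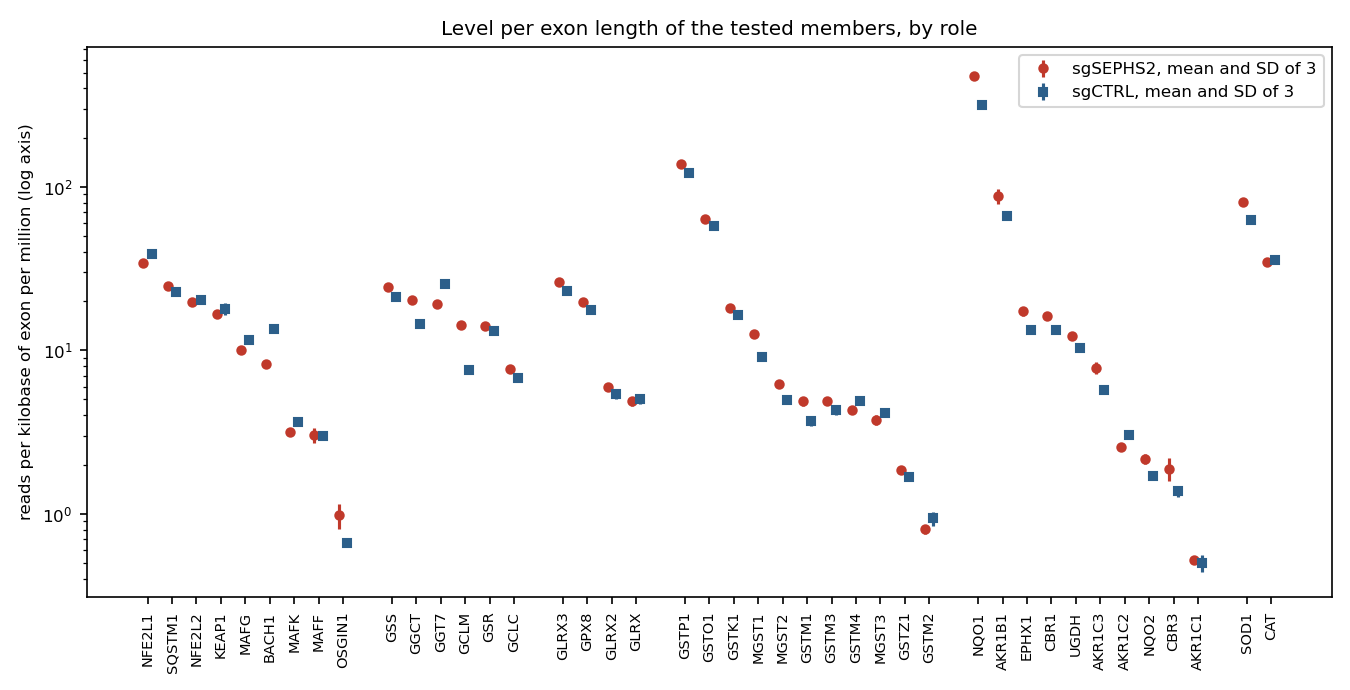
Level per exon length (RPKM, log y axis) of the tested members by role, as mean and SD of 3 libraries, with sgSEPHS2-labelled libraries in red left of sgCTRL libraries in blue. NQO1, GSTP1, AKR1B1 and SOD1 are the most abundant, and members of one role differ in level far more than the groups do.

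Other genes of the pathway were taken from a list of 63 names outside the 45. Of 56 in the table, 55 were tested, 25 rose, 9 fell and 21 did not pass, with a median log2 fold change of 0.20. These shares, 45.5% higher and 16.4% lower, compare with 22.0% and 23.4% of all genes tested. The list was chosen with earlier results of these data known, so the shares are not an independent test of the pathway. PIR, an iron-binding protein and NRF2 target, had 77.2, 81 and 73.8 CPM in sgSEPHS2-labelled libraries, against 36.5, 38.4 and 38.5 CPM in sgCTRL libraries (log2 fold change 1.03, SE 0.05, edgeR adjusted p = 5.19e-13). CHAC2, a cytosolic enzyme that degrades glutathione, had 33.1, 32.7 and 30.9 CPM in sgSEPHS2-labelled and 17.6, 19.2 and 18.5 CPM in sgCTRL libraries (log2 fold change 0.80, SE 0.06, edgeR adjusted p = 4.78e-10). SLC7A11, the cystine carrier of system xc-, had 231, 193 and 213 CPM in sgSEPHS2-labelled and 156, 144 and 145 CPM in sgCTRL libraries (log2 fold change 0.52, SE 0.05, edgeR adjusted p = 8.86e-08). HMOX1, heme oxygenase, had 7.23, 6.08 and 6.44 CPM in sgSEPHS2-labelled and 3.96, 4.43 and 4.33 CPM in sgCTRL libraries (log2 fold change 0.63, SE 0.12, edgeR adjusted p = 1.88e-04). This known target of BACH1 repression was low in both groups. SRXN1, sulfiredoxin, did not pass (-0.25, SE 0.34, adjusted p = 0.588), at 22 to 32 reads in each sgSEPHS2-labelled and 29 to 46 in each sgCTRL library, and 85% of its exonic bases are shared with another gene. FTL, PRDX1, ABCC2, SLC3A2, TXN and IDH1 also rose, by log2 fold changes of 0.51 for IDH1 to 1.13 for FTL. TXNRD1, a thioredoxin reductase and itself a selenoprotein, had 461, 417 and 424 CPM in sgSEPHS2-labelled and 324, 318 and 312 CPM in sgCTRL libraries (log2 fold change 0.45, SE 0.04, edgeR adjusted p = 3.46e-08). FTL has 16 named pseudogenes and TXN 7.

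The 9 genes of this list that fell were NFE2L3, KIF21B, EPHX2, OPLAH, GPX3 and the exporters ABCC1, ABCC3, ABCC4 and ABCC5, named here after their values were seen. NFE2L3, a relative of NRF2, averaged 41.7 ± 2.65 CPM in sgSEPHS2-labelled and 52.8 ± 2.75 CPM in sgCTRL libraries (SD, n = 3 each), a log2 fold change of -0.34. KIF21B, a kinesin, averaged 33.6 ± 1.36 CPM in sgSEPHS2-labelled and 46.3 ± 1.64 CPM in sgCTRL libraries (-0.46). EPHX2, soluble epoxide hydrolase, had the largest fold change of the 55, at levels near 0, with 0.104 ± 0.0521 CPM in sgSEPHS2-labelled and 0.446 ± 0.0324 CPM in sgCTRL libraries (-2.09, edgeR adjusted p = 0.00274). OPLAH, which opens 5-oxoproline to glutamate, and GPX3, the secreted selenium peroxidase, had log2 fold changes of -0.56 and -0.39 (edgeR adjusted p = 0.016 and 0.011). OPLAH lost its call without sgSEPHS2 replicate 2 or sgCTRL replicate 3 (adjusted p = 0.0973 and 0.0762) and with the length and GC trend removed (-0.36, adjusted p = 0.131), and GPX3 without sgSEPHS2 replicate 3 (-0.28, adjusted p = 0.0697).

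Of the 30 members that passed, 22 did so under each of 15 alternative settings, and none of the 30 changed sign. The 8 that lost a call at least once were MAFK, SQSTM1, OSGIN1, GPX8, GSTM3, GSTM4, GSTO1 and GSTK1. Of 12 that did not pass, KEAP1, GLRX2, GSTZ1, MGST3 and CBR3 passed under at least 1 setting.

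**Figure D5:**
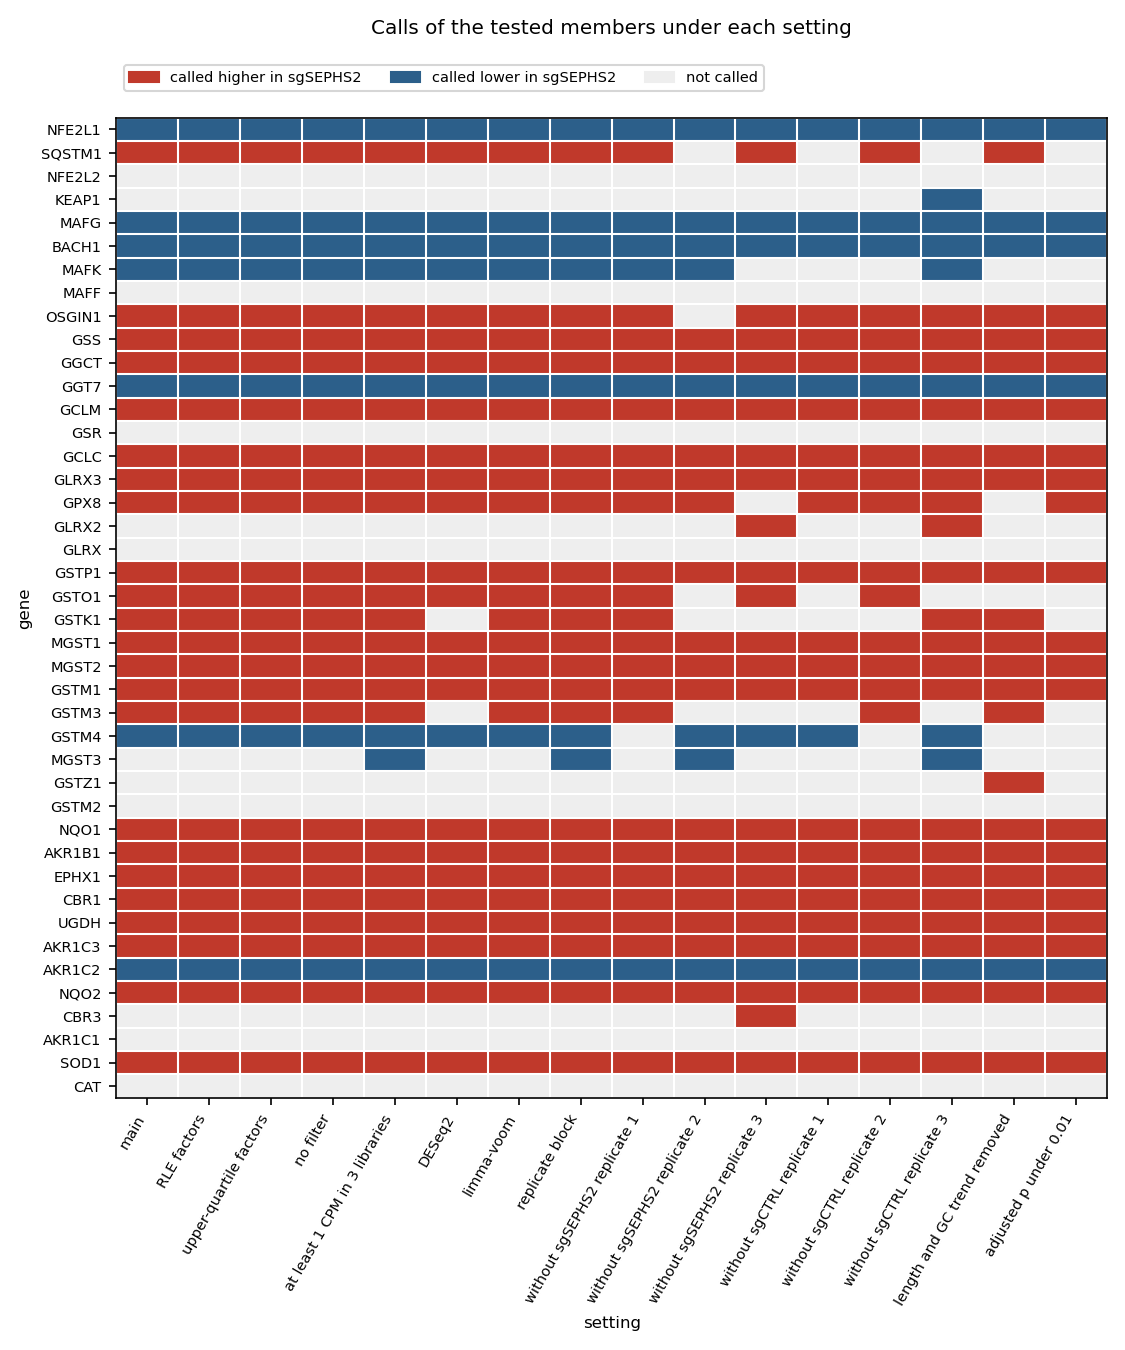
Call of each tested member (rows) under the main setting and each alternative setting (columns): red, higher in sgSEPHS2-labelled libraries; blue, lower; grey, not called. Whole rows of one colour, as for GCLM, NQO1 and BACH1, mark calls that were made under each setting shown.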

How the data were processed

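What the authors deposited is a table of unnormalized read counts, by gene symbol, for 6 RNA-seq libraries. Tools named per the submitters' processing notes are HISAT2 2.2.1, featureCounts 2.0.6, SAMtools 1.21 and FastQC 0.12.1, with GRCh38. The annotation, strand setting and handling of multiply mapped reads: not given in the sources used here, so paralogs, pseudogenes and overlapping genes are uncertain.

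Groups and replicate numbers came from the sample titles. Counts were fitted in R 4.3.3 with edgeR 4.0.16 (TMM, default filter, two-sided quasi-likelihood test), adjusted over 16910 genes by Benjamini-Hochberg; 4721 symbols were filtered out. Fold changes are sgSEPHS2 over sgCTRL. RPKM used GENCODE 29 exon lengths, and positions are RefSeq, GRCh38.p14.

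Alternatives were DESeq2 1.42.0, limma-voom 3.58.1, upper-quartile or RLE factors, no low-count filter, a minimum of 1 CPM in 3 libraries, the replicate number as a block, each library left out, and an adjusted p under 0.01. A fit corrected for spline trends in GC content and exon length was added after seeing the data. Members and lists were chosen with earlier results of these data known. Named by rule were up to 4 members per role by smallest adjusted p, NFE2L2, KEAP1, GCLC, GCLM, GSR and NQO1, and up to 8 other pathway genes plus SLC7A11, HMOX1, TXNRD1 and SRXN1. These have full values, except SRXN1, with a range of reads, and FTL, PRDX1, SLC3A2, TXN and IDH1, with a range of fold changes. AKR1B10, CBR3, AKR1C2 and CAT were added after their values were seen, and ME1 was given in full outside the rule. The values of 1 gene on the list of other pathway genes are not reported here.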

Additional observations from a re-analysis of the deposited data

How the results depend on the processing

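Over all alternative settings, 18 to 24 members passed as higher (23 as reported) and 5 to 9 as lower (7). Leaving out 1 library gave 18 to 23 higher and 5 to 9 lower, and the length and GC trend 22 and 5. At an adjusted p under 0.01, 5 other pathway genes were lower, against 9. That trend turned the sign of RBX1 (-0.0083), ANPEP (0.048), GPX1 (0.00389), ABCC3 (0.00997) and ABCC5 (0.038), and ABCC3 and ABCC5 had been called lower; why it did so was not tested. With 1 library left out, log2 fold changes near 0 crossed it for MAFF (-0.060 to 0.10), GLRX (-0.10 to 0.00100), AKR1C1 (-0.023 to 0.13), BACH2 (-0.039 to 0.23), GGT5 (-0.48 to 0.50), ANPEP (-0.034 to 0.011), GPX1 (-0.12 to 0.064) and HAGH (-0.016 to 0.043), none of them called. The replicate number as a block gave 23 members higher and 8 lower, the added call being MGST3 (adjusted p = 0.0474). Deviations from the group means in same-numbered libraries had correlations of 0.0915, 0.00749 and 0.117 over 14043 genes. Between different numbers they ran from -0.171 to 0.0968, and not every library correlated best with its own number. Whether same-numbered libraries were prepared together was not tested. Depth limits AKR1B10, GGT1 and GPX7, each with fewer than 30 reads over a group.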

Other observations

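Exporters and NADPH enzymes were also on the list of other pathway genes. Of the 5 ABC exporters of conjugates, ABCC2 rose, with 111, 99.8 and 96.6 CPM in sgSEPHS2-labelled and 57.1, 50.8 and 56.3 CPM in sgCTRL libraries (log2 fold change 0.90, edgeR adjusted p = 2.74e-11), and 4 fell. These shares, 20% higher and 80% lower, rest on few genes and compare with 22.0% and 23.4% of all genes tested. ABCC4 fell most, by -0.52 (adjusted p = 2.34e-07), and ABCC1 by -0.20 (adjusted p = 0.00122), a call lost with the length and GC trend removed (-0.09, adjusted p = 0.0842). ABCC3 and ABCC5 had log2 fold changes of -0.14 and -0.13 (edgeR adjusted p = 0.0249 and 0.0273), which turned to 0.00997 and 0.038 with that trend removed. ABCC3 also lost its call without sgSEPHS2 replicate 3, sgCTRL replicate 1 or sgCTRL replicate 3 (adjusted p = 0.0579 to 0.101), and ABCC5 without sgSEPHS2 replicate 2 or 3 or sgCTRL replicate 1 or 3 (adjusted p = 0.0563 to 0.138). Of the enzymes that make NADPH, PGD rose by a log2 fold change of 0.19 (edgeR adjusted p = 6.36e-04) and ME1, malic enzyme, by 0.52 (edgeR adjusted p = 1.76e-08). ME1 had 78.7, 80 and 84.1 CPM in sgSEPHS2-labelled and 55.1, 59.7 and 54.3 CPM in sgCTRL libraries.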
